A study of Mus musculus with 4 samples.

Results

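The cells described here are CD150+CD48- stem cells with high CD201 from the mouse fetal liver at E17.5 of gestation, a population of 391 cells among 8094. They were chosen by antibody tags. A cell was a barcode with at least 8000 gene UMIs (unique molecular identifiers, each standing for 1 captured RNA molecule) and at most 10% mitochondrial UMIs. Tags were expressed as the centred log ratio (CLR), the natural log of 1 plus the tag count minus its mean over the 6 antibodies of that cell. The gate took cells with CD150 CLR over -1.14, CD48 CLR under 2.34 and under 2 UMIs of each of Elane, Klf1, Pf4, Il7r and Cma1. Cells at or above the median CD201 CLR of their own library's gate were kept, which gave 109 of 2742 KO cells and 282 of 5352 WT cells. Because the choice took the upper CD201 part of each gate, above the median, the share of kept cells follows from the size of the gate.

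The assay was CITE-seq, in which oligonucleotide tags on antibodies are sequenced along with the transcripts of each cell, and it was run on sorted LSK cells (lineage-negative, Sca1+, c-Kit+). The KO library came from Vav-Cre:Bclaf1 f/f embryos, in which Cre recombinase under the Vav promoter acts on floxed Bclaf1 in blood cells, and the WT library from Bclaf1 f/f embryos without Cre. Both therefore carry the floxed alleles, and presence of Cre and loss of Bclaf1 cannot be told apart. Each genotype was 1 pool of 10 embryos captured as 1 library, so there is no replicate, no test was made, and every difference is between these libraries. Brackets after values are 95% intervals that cover counting error only.

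Haematopoietic stem cells sit at the top of the blood hierarchy, and in the fetal liver they expand before they move to the bone marrow. CD150 (the product of Slamf1) and absence of CD48 are used to separate stem cells from multipotent progenitors. CD201, the endothelial protein C receptor encoded by Procr, marks the stem cells with the strongest long-term activity within such gates, also in the fetal liver. BCLAF1 is a nuclear protein linked to transcription and RNA processing, and the series title places it in the stress responses of stem cells.

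The barcodes of the 3 antibodies that chose the cells are shown in capitals, since the tag counts are counts of these sequences, with the other antibodies in lower case.
CD150: CAACGCCTAGAAACC
CD48: AGAACCGCCGTAGTT
CD201: TATGATCTGCCCTTG
CD34: aaactcaggtccttc
CD117: tgcatgtcatcggtg
Sca1: gtccgactaatagct
Each is 15 bases long and is given 5′ to 3′ as in the deposited antibody list. The Sca1 tag was read through a streptavidin conjugate in that list.

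Tag values place the population as chosen, and are given as a description. Median CD201 tags per cell were 178 in KO cells and 89 in WT cells, against medians of 10 and 3 in barcodes with 100 to 300 gene UMIs. Median CD150 tags were 227 and 149.5, and median CD48 tags 255 and 159.5, in KO and WT cells. CD48 tags were thus well above those of near-empty barcodes, at 22 and 12, in cells called CD48-. In the low-CD201 cells of the gate the CD48 medians were 948 in KO and 574.5 in WT cells. CD117 (c-Kit) had 697 and 500.5, Sca1 389 and 420, and CD34 28 and 14 median tags in KO and WT cells. Of these tags Sca1 alone had the higher median in WT. Antibody tags in all had medians of 2066 in KO and 1523 in WT cells.

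The CD201 limit lay at -0.77 CLR in KO and -1.14 in WT, so KO cells needed more CD201 relative to their other tags. In KO the nearest cell inside had -0.765 and the nearest outside -0.773, and in WT they had -1.142 and -1.144. At the CD150 limit the nearest cells inside had -1.139 in KO and -1.136 in WT, and those outside -1.142 in both. At the CD48 limit they had 2.319 and 2.332 inside, and 2.343 and 2.350 outside. The limit on lineage genes removed 80 of 297 gated KO cells and 55 of 619 gated WT cells before the CD201 step.

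**Figure D1:**
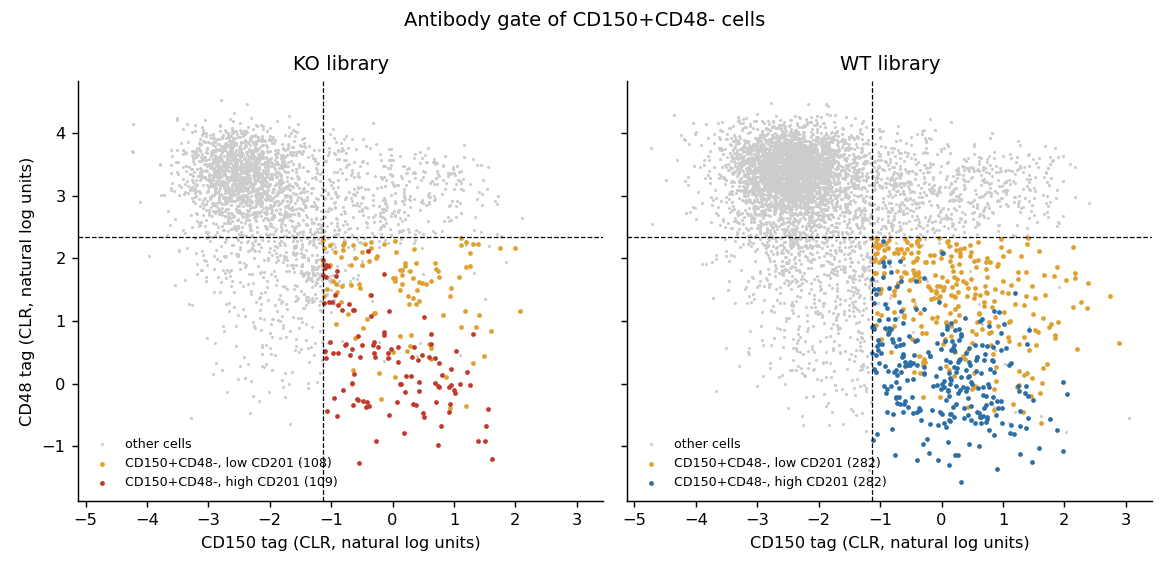
CD150 tag (x axis) against CD48 tag (y axis), both in CLR units, for every cell of the KO library and of the WT library, with dashed lines at the limits of the gate. Coloured points are the high-CD201 cells (109 KO, 282 WT) and orange points low-CD201 cells (108 KO, 282 WT), which lies nearer to the CD48 limit.

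High-CD201 cells made up 3.98% (3.28 to 4.78, Clopper-Pearson) of KO cells and 5.27% (4.69 to 5.90) of WT cells. The whole CD150+CD48- gate held 7.91% (6.93 to 8.99) of KO and 10.5% (9.73 to 11.4) of WT cells. With 1 CD201 limit for both libraries the shares of the high-CD201 cells were 4.89% in KO and 4.80% in WT, so the lower share in KO was not seen under that limit.

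KO cells held 2110323 gene UMIs (median 19167 per cell) and WT cells 4284804 (median 13875 per cell), with medians of 4504 and 3678.5 genes. Of all called cells, 5 barcodes occurred in both libraries, and none of them was a high-CD201 cell in both.

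A subset of KO cells, defined after the values were seen, stood apart from the rest. In 10 of the 109 KO cells and in none of the 282 WT cells, Gm42418, a gene model that overlaps ribosomal RNA repeats, took 13.9% to 28.4% of gene UMIs while mitochondrial transcripts took only 0.50% to 1.33%. In the other KO cells the Gm42418 share reached at most 9.45% and the median mitochondrial share was 4.30%. These 10 cells held 7.60% of the KO UMIs. Such cells also occurred in the CD150-CD48- population, with 19 KO cells and 1 WT cell. Levels between the libraries are therefore given with all cells and without these 10.

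**Figure D2:**
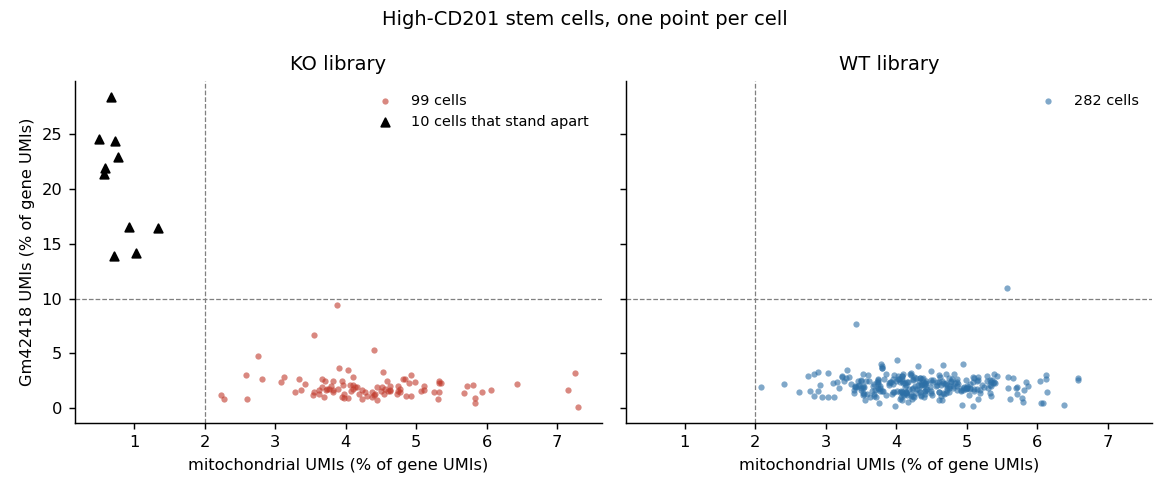
Share of Gm42418 (y axis) against the share of mitochondrial transcripts (x axis), both in percent of gene UMIs, for each high-CD201 cell of the KO library and of the WT library. Triangles mark the 10 KO cells over 10% Gm42418 and under 2% mitochondrial UMIs, which lie apart from the other 99 KO cells and from all 282 WT cells.

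The 6 marker genes of the population were detected in both libraries, and their levels (UMIs per 1000000 gene UMIs, CPM) differed by less than 1.5-fold between them except for Meg3. Procr had 75.8 CPM in KO and 84.3 CPM in WT, a log2 ratio of -0.15 (-0.43 to 0.12). Mecom, a transcription factor needed to keep stem cells, had 361.6 and 358.2 CPM, at 0.01 (-0.11 to 0.14). Hlf, a bZIP transcription factor restricted to stem cells and early progenitors, had 607.0 CPM in KO and 566.4 CPM in WT, at 0.10 (0.00 to 0.20). Slamf1 had 25.1 and 22.2 CPM at 0.18 (-0.33 to 0.68), and Pdzk1ip1, which encodes a small membrane protein, 159.2 and 166.6 CPM at -0.07 (-0.26 to 0.12). Meg3, a maternally expressed imprinted long non-coding RNA, had 227.0 CPM in KO and 129.5 CPM in WT, a log2 ratio of 0.81 (0.63 to 0.99), and 0.88 without the 10 cells. Meg3 was not higher in low-CD201 KO cells, at 70.1 CPM in KO and 79.8 CPM in WT (-0.19). Without a limit on lineage genes its ratio was -0.030. The other markers also depended on that limit, and without it Procr was at -0.91, Pdzk1ip1 at -0.81, Mecom at -0.72, Hlf at -0.62 and Slamf1 at -0.40. With at least 16000 UMIs per cell Procr was at 0.43, Pdzk1ip1 at 0.46 and Hlf at 0.44.

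With cells thinned to 8000 UMIs, Procr was detected in 44.0% (34.5 to 53.9) of KO cells and 49.3% (43.3 to 55.3) of WT cells, or in 60.6% and 64.5% unthinned. In CD150-CD48+ progenitors, which should largely lack it, thinned shares for Procr were 6.08% in KO and 5.36% in WT, at median depths of 33091.5 and 24175 UMIs before thinning. Slamf1 was detected in 17.4% of KO and 14.2% of WT high-CD201 cells, or in 31.2% and 20.9% unthinned. In CD150-CD48- cells the thinned shares for Slamf1 were 1.18% in KO and 1.59% in WT, at median depths of 20559 and 15756.5 UMIs before thinning. The shares of both antibody targets lay above those in the populations set beside them. The tags of these targets chose the cells, so this is a description.

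Within the CD150+CD48- gate, several genes followed the CD201 tag in both libraries when the gated cells were split by CD201 into 4 groups of equal size. Procr itself had 19.6, 34.6, 43.9 and 107.9 CPM from the lowest to the highest CD201 group in KO, and 23.8, 39.6, 62.2 and 108.0 CPM in WT. Mecom had 171.1, 224.3, 285.0 and 441.9 CPM in KO and 164.3, 230.3, 284.8 and 437.1 CPM in WT. Hlf had 351.4, 434.3, 562.1 and 660.5 CPM in KO, and 309.6, 400.4, 506.5 and 630.8 CPM in WT. Each of these genes was higher in every successive CD201 group of both libraries. Procr encodes CD201, whose tag made the groups, so its order is only a description.

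The imprinted growth genes Igf2, a fetal growth factor, and H19, a non-coding RNA from the same locus, had the same order. Igf2 had 3.68, 16.9, 22.4 and 63.8 CPM in KO and 5.78, 8.23, 26.6 and 53.7 CPM in WT. H19 had 57.0, 79.3, 127.8 and 306.8 CPM in KO and 44.9, 66.2, 111.8 and 208.6 CPM in WT, and 20.2% of its KO UMIs in high-CD201 cells came from 1 cell. Slamf1 had no such order, with 33.7, 27.0, 28.3 and 22.5 CPM in KO and 28.6, 13.8, 22.98 and 21.3 CPM in WT.

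Mki67, a marker of dividing cells, ran the other way, at 410.9, 214.2, 199.1 and 34.7 CPM in KO and 232.0, 132.3, 80.2 and 42.1 CPM in WT. The third KO group held 9 of the cells that stand apart, and Mki67 was at 54.3 CPM there without them. Cd48 RNA was lower in every successive group, at 63.2, 41.3, 26.4 and 3.75 CPM in KO and 50.0, 43.7, 25.7 and 3.87 CPM in WT. The CD48 tag enters the mean that the CD201 CLR subtracts, so the Cd48 order is also only a description.

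**Figure D3:**
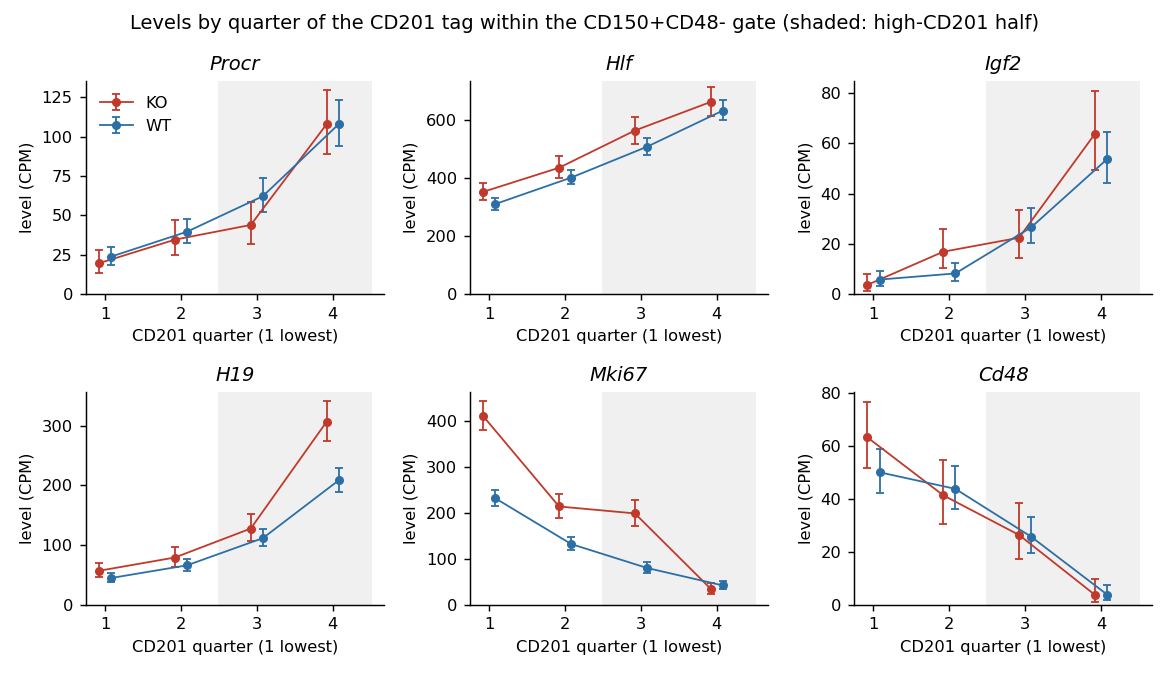
Levels in CPM (y axis, from 0) of 6 genes by CD201 group, 1 to 4, within the CD150+CD48- gate (x axis, lowest to highest), in KO (red) and WT (blue), with bars for the 95% counting interval. The shaded groups are the high-CD201 cells, apart from 1 KO cell at the limit that falls in group 2, and Procr, Hlf, Igf2 and H19 are highest and Mki67 and Cd48 lowest in group 4.

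The high-CD201 cells were set against the low-CD201 cells of the same gate and library, to show what its cells share beyond the tag. Among 6550 genes with at least 20 CPM in any of the 4 pools, 128 were at least 1.5-fold higher in both libraries (1.95%) and 203 at least 1.5-fold lower (3.1%). No test was made, since all cells of a library share its capture, and CD201, CD150 and CD48 chose the cells.

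Igf1, Bank1 and Igf2 led the higher side. Igf1, a growth factor, had 41.7 CPM in high-CD201 against 6.08 CPM in low-CD201 KO cells (log2 ratio 2.78), and 35.7 against 7.84 CPM in WT cells (2.19). Igf2 had ratios of 2.21 in KO and 2.51 in WT, and H19 1.72 and 1.53. Bank1, which encodes a scaffold protein known from B cells, had 40.3 against 7.87 CPM in KO (2.36) and 44.1 against 5.52 CPM in WT (3.0). Ndnf, which encodes a secreted protein, had 1.97 and 2.46, and Fxyd1, a regulator of the sodium pump, 1.70 and 1.44. Bank1 and Ndnf did not set these cells apart from CD150-CD48- cells, where Bank1 had 37.3 CPM in KO and 39.5 CPM in WT, and Ndnf 44.0 and 40.5 CPM. Over those cells Igf1 had smaller ratios of 0.69 in KO and 0.44 in WT, and Fxyd1 0.36 and 0.63. Igf2 had 1.86 and 1.81 over them, and H19 1.80 and 1.29.

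Mllt3, a chromatin reader that maintains human stem cells in culture, had 332.6 CPM in high-CD201 against 140.2 CPM in low-CD201 KO cells, and 305.5 against 156.2 CPM in WT cells (0.97). Ahr, the aryl hydrocarbon receptor, had 1.33 and 1.39, and Ltb, the lymphotoxin beta gene, 1.43 and 1.02. Of 27 measured genes of stem cell identity, 12 were higher and 1 lower by the limit used for lists (the higher level at least 25% above the lower, in both libraries), beside 9.63% and 6.61% of all genes. The imprinted growth list had 6 of 11 higher and none lower. Interferon response genes had 7 of 22 higher and none lower, with medians of 0.29 in KO and 0.38 in WT beside 0.09 and 0.04 for all genes. Against CD150-CD48- cells this list had 3 of 22 higher and 4 lower, beside 6.59% and 4.62% of all genes. Its medians there were -0.14 in KO and -0.07 in WT, so it was not higher than in that population.

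Cell cycle and MHC class II genes lay on the lower side. Of 52 measured G2 and M phase genes, 45 passed this limit as lower in high-CD201 cells of both libraries, with median log2 ratios of -1.72 in KO and -1.02 in WT. By the same limit 6.61% of all genes were lower and 9.63% higher, with medians of 0.09 in KO and 0.04 in WT. Of 41 S phase genes 24 were lower, and of 42 replication-dependent histone genes 38 were lower, with medians of -1.74 and -1.04 for the histones. The mitotic kinase gene Bub1 had -2.41 in KO and -2.10 in WT, the cyclin gene Ccna2 -2.49 and -1.75, and Cdca3, a gene of mitotic entry, -2.66 and -1.95.

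H2-Aa, a class II antigen-presenting chain, had 1 UMI in all KO and 2 UMIs in all WT high-CD201 cells, against 80.8 and 21.6 CPM in low-CD201 cells. In low-CD201 cells 4 KO cells and 2 WT cells had at least 2 UMIs of H2-Aa, and no high-CD201 cell of either library had as many. Its lower level in high-CD201 cells thus goes with a few low-CD201 cells.

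Set against CD150-CD48- cells, which are under the same CD48 limit but carried median CD48 tags of 968 in KO and 504 in WT, 106 of 6494 genes were at least 1.5-fold higher in both libraries (1.63%) and 148 at least 1.5-fold lower (2.28%). Slamf1, which the CD150 tag used, had 3.32 in KO and 3.65 in WT on the log2 scale. Trpc6, a calcium channel gene, had 2.14 and 2.03, Inhba, an activin subunit gene, 2.45 and 2.16, and Ctnnal1, an alpha-catulin gene, 2.03 and 1.75. Slc18a2, a vesicular monoamine transporter gene, had 1.69 and 1.88, Tgm2, a transglutaminase gene, 1.77 and 2.03, and the cytokine gene Il4 2.17 and 1.55. Tek, the receptor for angiopoietin, had 1.27 in KO and 1.23 in WT. Low-CD201 cells of the gate shared part of this. Over them Slamf1 had -0.31 in KO and 0.04 in WT, Slc18a2 -0.04 and 0.51, and Il4 0.26 and 0.78. Ctnnal1 had 0.40 and 0.47, Tgm2 0.70 and 0.44, Trpc6 0.95 and 0.34, and Inhba 1.56 and 1.42. For these genes the ratios were smaller than those over CD150-CD48- cells.

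Hlf, by contrast, was near that of CD150-CD48- cells, at 0.08 in KO and 0.04 in WT. Flt3, the receptor of lymphoid-primed progenitors, was lower in high-CD201 cells, at -1.67 and -1.58. The class II invariant chain gene Cd74 had -4.48 and -3.74. Among CD150-CD48- cells, 6 of 254 KO and 14 of 502 WT cells had at least 2 UMIs of H2-Aa, against no high-CD201 cell. The part of these cells in the Cd74 ratio was not tested. Of 44 measured G2 and M phase genes 34 were lower and none higher by the 25% limit, beside 4.62% lower and 6.59% higher of all genes, with medians of -0.76 in both libraries. Of 27 stem cell identity genes 14 were higher and 1 lower, with medians of 0.45 in KO and 0.46 in WT.

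The comparison of genotypes within high-CD201 cells asked how stem cells differ where Bclaf1 is deleted in blood cells. Bclaf1, on chromosome 10, had 94.8 CPM in KO and 212.6 CPM in WT cells, a log2 ratio of -1.17 (-1.39 to -0.94), and -1.28 without the 10 cells. It was detected in 89 of 109 KO and 258 of 282 WT cells, and the labels do not say which exons are floxed, so a 3' tag checks a deletion only in part. Thrap3, whose product is a close relative of BCLAF1, had 255.9 CPM in KO and 169.9 CPM in WT (0.59, 0.43 to 0.75), and 0.54 without the 10 cells.

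Among 6264 genes that reached 20 CPM in KO or WT, 362 were at least 1.5-fold higher in KO (5.78%) and 59 at least 1.5-fold lower (0.942%). Without the 10 cells, 231 of 6212 were higher (3.72%) and 73 lower (1.18%). With median-of-ratios scaling, which centres the genes, the split was 211 higher and 125 lower. The median log2 ratio of all counted genes was 0.09, and 0.07 without the 10 cells.

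**Figure D4:**
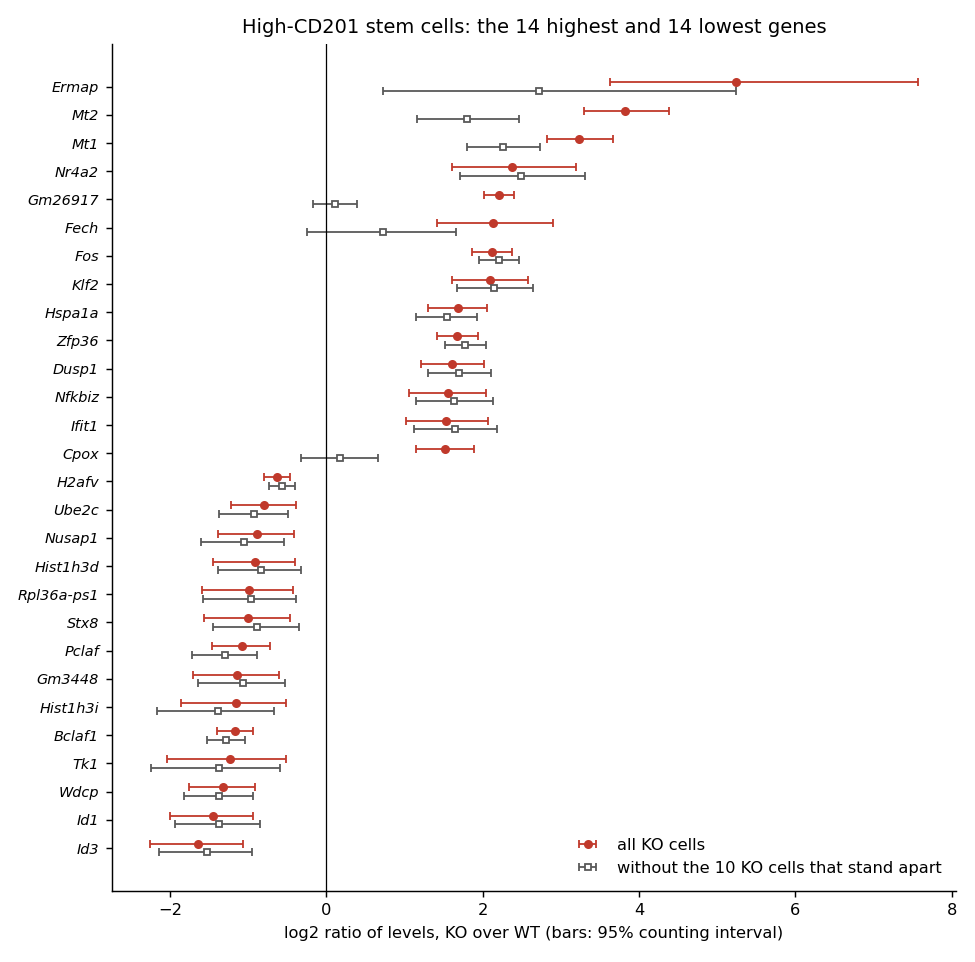
Log2 ratio of levels in KO over WT high-CD201 cells (x axis) for the 14 highest and 14 lowest genes by counting interval, with all KO cells (red circles) and without the 10 that stand apart (open squares), and bars for 95% counting intervals. Gm26917 and Cpox come near 0 without those cells, while Nr4a2, Fos and Klf2 do not.

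Immediate early genes, which cells switch on within minutes of a stimulus, were higher in KO high-CD201 cells. Fos, which pairs with Jun proteins to form AP-1, had 190.0 CPM in KO and 43.9 CPM in WT, a log2 ratio of 2.11 (1.86 to 2.37). The KO level was uneven, at 93.7 CPM in CD201 group 3 (104.1 CPM without the cells that stand apart) and 285.2 CPM in group 4. In WT these groups had 47.3 and 40.2 CPM. Nr4a2, an orphan nuclear receptor gene, had 24.2 and 4.67 CPM at 2.37 (1.60 to 3.20), with 19.6% of its KO UMIs in 1 cell. Klf2, a Krüppel-like factor known to restrain proliferation, had 53.5 and 12.6 CPM at 2.09 (1.61 to 2.58). Zfp36, which encodes the RNA-destabilising protein tristetraprolin, had 149.7 CPM in KO and 46.9 CPM in WT at 1.67 (1.41 to 1.94), and the MAP kinase phosphatase gene Dusp1 62.5 and 20.5 CPM at 1.61 (1.21 to 2.01). Fosb had 1.47, Jun 1.00, Egr1 0.86 and Junb 0.62 on the same scale.

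Of 22 measured members of 32 listed immediate early genes, 19 were higher by the 25% limit and none was lower, beside 22.2% of all counted genes higher and 6% lower. Their median ratio was 0.77 with all cells, and 21 of 22 were higher with a median of 0.78 without the 10 cells. With no limit on the 5 lineage genes the median was 0.16. The nearest to 0 was Zfp36l2, at 0.06. Fos and Nr4a2 were also higher in KO cells of other populations, with Fos at 2.24 in low-CD201 and 2.14 in CD150-CD48- cells, and Nr4a2 at 2.48 and 2.79. No difference of these ratios between populations was tested. Myc, a regulator of growth listed here too, had 45.0 CPM in KO and 20.3 CPM in WT (1.15, 0.71 to 1.59), but -0.27 in low-CD201 cells.

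Counted per cell with cells thinned to 8000 UMIs, the listed early genes gave medians of 23 UMIs in KO (quartiles 16 and 32) and 15 UMIs in WT cells (11 and 21). The quartile ranges overlapped between 16 and 21 UMIs, and the lowest and highest cells had 2 and 80 UMIs in KO against 3 and 54 UMIs in WT. Cells with at least 20 such UMIs made up 67.0% (57.3 to 75.7) of KO and 30.9% (25.5 to 36.6) of WT high-CD201 cells.

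**Figure D5:**
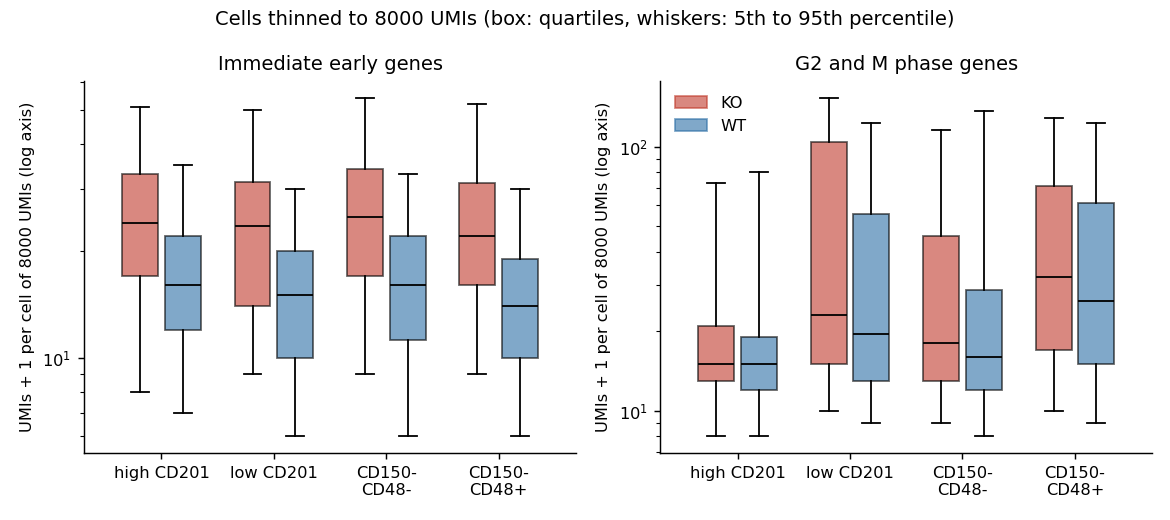
UMIs plus 1 per cell, on a log axis, of immediate early genes and of G2 and M phase genes by population (x axis), KO (red) left of WT (blue), after thinning each cell to 8000 UMIs, with boxes at the quartiles and whiskers at the 5th and 95th percentiles. Early gene boxes lie higher in KO in all 4 populations, and high-CD201 cells have the lowest G2 and M phase medians, at 14 in both libraries.

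The promoters of the 3 immediate early genes with the highest ratios are shown because these genes differed together. The windows run from 250 bases before to 50 after the annotated start, read 5′ to 3′ on the gene's strand (RefSeq, GRCm38.p6), with capitals marking TGACG on either strand, a core bound by CREB and ATF factors.
Nr4a2, chr2:57123954-57124253, minus strand: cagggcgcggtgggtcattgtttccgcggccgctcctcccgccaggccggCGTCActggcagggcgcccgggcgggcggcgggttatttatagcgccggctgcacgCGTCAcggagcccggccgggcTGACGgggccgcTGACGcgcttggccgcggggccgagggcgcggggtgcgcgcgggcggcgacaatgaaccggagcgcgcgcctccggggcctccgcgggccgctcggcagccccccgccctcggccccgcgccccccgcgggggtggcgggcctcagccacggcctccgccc
Fos, chr12:85473640-85473939, plus strand: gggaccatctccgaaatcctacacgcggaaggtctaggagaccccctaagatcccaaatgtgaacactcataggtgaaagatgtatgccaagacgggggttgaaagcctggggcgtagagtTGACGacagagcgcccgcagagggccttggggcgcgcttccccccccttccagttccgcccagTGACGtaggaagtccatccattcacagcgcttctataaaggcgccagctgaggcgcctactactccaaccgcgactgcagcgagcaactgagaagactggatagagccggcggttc
Klf2, chr8:72318812-72319111, plus strand: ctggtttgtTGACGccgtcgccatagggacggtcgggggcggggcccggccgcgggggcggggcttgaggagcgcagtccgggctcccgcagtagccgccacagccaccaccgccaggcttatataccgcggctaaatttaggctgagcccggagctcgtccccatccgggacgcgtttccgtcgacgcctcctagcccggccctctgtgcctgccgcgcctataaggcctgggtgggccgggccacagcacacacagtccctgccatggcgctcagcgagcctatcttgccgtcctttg
The search used TGACG and its reverse complement, and TGANTCA, the AP-1 site, and the CArG box bound by serum response factor on both strands. Matches to TGACG numbered 4 in the Nr4a2 window, 2 in the Fos window and 1 in the Klf2 window, and none of the other motifs matched in these windows. TGACG was found in 9 of the 18 early genes with a window (50.0%) and in 20.8% of all 32851 windows. TGANTCA was found in 1 of 18 (5.56%) and in 7.81% of all, and the CArG box in 1 of 18 (5.56%) and 1.63% of all. These letter matches are a description and show no binding.

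Other stress lists lay nearer to all genes than the early genes did, and single members stood out. Hspa1a and Hspa1b, near-identical inducible HSP70 genes that share reads, had 73.9 CPM in KO and 23.1 CPM in WT (1.68, 1.31 to 2.06), and 106.1 and 52.5 CPM (1.02, 0.74 to 1.29). Of 15 heat shock genes, 6 were higher by the 25% limit and none was lower, with a median of 0.27, beside 22.2% of genes higher. Without the 10 cells the number was 3 and the median 0.19, beside 16.9% of genes higher and 5.67% lower. Hsp90aa1, a major cytosolic chaperone gene, had 0.37 with all cells and 0.15 without them.

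Targets of p53 had 6 of 13 members higher and none lower, with a median of 0.32, beside 22.2% of all genes higher and 6% lower. With the 10 cells left out 8 of 14 were higher, with a median of 0.38, beside 16.9% of all genes. Plk2, a polo-like kinase, had 34.6 CPM in KO and 13.8 CPM in WT (1.33, 0.81 to 1.85), Ccng1, cyclin G1, 0.72 (0.32 to 1.11), and Mdm2, the ligase that degrades p53, 0.47 (0.06 to 0.88). Nfkbiz, an NF-kB regulator, had 41.7 and 14.2 CPM in KO and WT (1.55, 1.06 to 2.05). Dnajb9, a chaperone of the endoplasmic reticulum, had 0.80 (0.46 to 1.14), while its list of 16 unfolded protein genes had 3 higher and none lower at a median of 0.03. Integrated stress response genes had 3 of 13 higher and 1 lower, a share near the 22.2% of all genes, and a median of -0.0043 without the 10 cells. Commd10, named by its rank and not as a member of these lists, had 38.9 and 14.7 CPM in KO and WT (1.40, 0.91 to 1.90). It was also higher in KO in low-CD201 (1.55) and CD150-CD48- cells (1.27).

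Interferon response and MHC class I genes had medians below 0 in KO over WT, and few members passed the limit. Of 22 interferon response genes, 5 were lower and 1 higher by the 25% limit, at a median of -0.21, beside 6% lower and 22.2% higher of all genes. Without the 10 cells 2 were lower and 2 higher, at -0.14, beside 5.67% and 16.9%. Bst2, the antiviral protein tetherin, had 109.0 CPM in KO and 159.6 CPM in WT (-0.55, -0.77 to -0.33). The exception, Ifit1, had 1.53, with 61.0% of its KO UMIs in 1 cell. None of 8 class I genes passed the 25% limit, H2-K1 had -0.30 and H2-D1 -0.29, and their median was -0.19.

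Inhibitors of DNA binding, which block basic helix-loop-helix factors, were among the lowest genes. Id3 had 13.7 CPM in KO and 42.7 CPM in WT (-1.64, -2.25 to -1.07), from 6 of 109 KO and 34 of 282 WT cells. Id1 had 17.1 and 46.7 CPM in KO and WT (-1.45, -2.01 to -0.93), and -1.38 without the 10 cells. In low-CD201 cells the order was reversed for Id3, at 50.8 CPM in KO and 19.9 CPM in WT, and Id1 had -0.17. Wdcp had 27.5 and 68.8 CPM (-1.32, -1.76 to -0.91), with -0.32 in low-CD201 and 0.72 in CD150-CD48- cells.

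The median of the G2 and M phase genes had a direction that depended on the 10 cells. Of 33 measured G2 and M phase genes, 11 were higher and 8 lower by the 25% limit, at a median of 0.11, and without the 10 cells none of 29 was higher and 15 were lower, at -0.33. All genes had 22.2% higher and 6% lower with all cells, and 16.9% and 5.67% without the 10. Mki67 had 121.8 CPM in KO and 61.8 CPM in WT (0.98), but -0.50 without them. Nusap1, a mitotic spindle gene, had 21.8 and 40.4 CPM (-0.89), with 45.7% of its KO UMIs in 1 cell, and Ube2c, a ubiquitin-conjugating enzyme of mitosis, -0.80, with 50.8%. Both of these lay lower without the 10 cells, at -1.05 and -0.92. Pclaf, a PCNA-binding protein gene, had 35.5 and 75.4 CPM (-1.08, -1.47 to -0.72), and Tk1, thymidine kinase, -1.24 (-2.03 to -0.51). In KO, 1 cell held 44% of the Pclaf UMIs, and 1 cell held 31.6% of the 19 Tk1 UMIs. Of 33 measured S phase genes, 2 were higher and 3 lower by the 25% limit, at a median of 0.03. Without the 10 cells 1 was higher and 8 were lower, at -0.07. Cells with at least 20 S phase UMIs after thinning made up 29.4% of KO and 19.5% of WT high-CD201 cells. This KO share was 22.2% without the 10 cells. With all cells the S phase list was thus not lower in KO, unlike Pclaf and Tk1.

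Cells with at least 20 G2 and M phase UMIs after thinning made up 25.7% (17.8 to 34.9) of KO and 21.3% (16.6 to 26.5) of WT high-CD201 cells. Without the 10 cells the KO share was 19.2% (11.97 to 28.3). The KO and WT intervals overlapped with and without these cells. They cover counting error within 1 library each, so the overlap is no test of genotype. The same shares were 56.5% in KO and 48.6% in WT low-CD201 cells, and 65.0% and 59.9% in CD150-CD48+ progenitors. Of 35 histone genes 12 were lower and 6 higher in KO high-CD201 cells, beside 6% lower and 22.2% higher of all genes, with Hist1h2bc at 1.07 and Hist1h3i at -1.16, and histone copies share reads. The counts and the totals of this list differed in direction. The summed level of 67 histone genes was 6428 CPM in KO and 5816 CPM in WT, and the median per thinned cell was 41 UMIs in KO and 28 UMIs in WT. The KO median was 37 UMIs without the 10 cells.

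Stem cell identity genes had a median ratio near that of all genes. Of 27 identity genes, 6 were higher and none lower by the 25% limit, at a median of 0.04, and 0.11 without the 10 cells. Tal1, a regulator of blood specification, had 85.8 CPM in KO and 63.7 CPM in WT (0.43, 0.15 to 0.71), Mycn 163.0 and 163.8 CPM (-0.01), and Meis1 206.6 and 201.4 CPM (0.04). Of 17 cytokine and growth receptor genes, 7 were higher and 3 lower. Notch2 had 0.86 (0.34 to 1.39) with all cells and 0.50 without the 10. Kit, the receptor for stem cell factor, had 0.10 (-0.04 to 0.24). Tet2, a DNA demethylating enzyme, had 0.88 (0.35 to 1.41), and H19 0.46 (0.29 to 0.63). Of 18 quiescence genes 8 were higher and 1 lower, at a median of 0.29, and 7 and 1 at 0.28 without the 10 cells. This list shares Klf2, Egr1, Btg2 and other members with the early genes. Of 11 genes of the fetal programme 4 were higher and none lower, at 0.28, and of 16 DNA methylation and Polycomb genes 4 were higher and none lower, at 0.23. All genes had 22.2% higher and 6% lower by this limit, near the share of the methylation and Polycomb list. Without the 10 cells the median of the methylation and Polycomb list was 0.11.

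Splicing factor genes had 17 of 42 members higher and none lower, at a median of 0.29, beside 22.2% of all genes higher. In the remaining KO cells 7 of 42 were higher at a median of 0.18, a share near the 16.9% of all genes without the 10 cells. Tra2b, a splicing regulator, had 0.49 with all cells and 0.35 without. None of 80 ribosomal protein genes passed the 25% limit, and their median was -0.15, or -0.08 without the 10 cells.

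Some of the highest ratios went with the 10 cells. Ermap, an erythroid membrane protein gene, had 26.5 CPM in KO and 0.700 CPM in WT (3 UMIs), at 5.24 (3.62 to 7.56), and 2.72 without the 10 cells. The metallothionein genes Mt1 and Mt2, which bind zinc, had 3.24 and 3.82, and 2.26 and 1.80 without them. Gm26917, Fech, the enzyme of the last step of haem synthesis, and Cpox, an earlier enzyme of that pathway, had 2.21, 2.14 and 1.52, and 0.11, 0.72 and 0.18 without them.

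Markers of other cell types had similar sums in both libraries for most lists, and their part in the differences was not tested. Of 6 eosinophil markers, all 6 were at 0 in KO and 5 in WT, and of 10 stellate or mesenchymal markers 6 were at 0 in each library, with sums of 4.26 CPM in KO and 3.27 CPM in WT. Of 12 hepatoblast markers 5 were at 0 in KO and 4 in WT, Alb among those of WT, and the sums were 599.0 and 631.3 CPM. The summed level of 12 erythroid markers was 2856 CPM in KO and 2692 CPM in WT, and Car1 was at 0 in WT. Of 11 megakaryocyte markers the sum was 93.4 and 85.0 CPM. Sums for the 12 granulocyte-monocyte markers were 721.2 and 711.6 CPM, and for the 12 lymphoid markers 339.8 and 368.0 CPM. The 10 endothelial markers were all detected, with 140.3 CPM in KO and 137.9 CPM in WT. T, NK and innate lymphoid markers summed to 22.3 and 18.2 CPM, mast and basophil markers to 14.7 and 6.07 CPM, and macrophage and dendritic markers to 213.7 and 240.2 CPM.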

How the data were processed

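RNA and antibody tags were measured in 1 library per genotype, each a pool of 10 embryos. The files the authors deposited are unfiltered UMI counts of 32285 genes and 6 antibodies, made with Cell Ranger, per the file headers, on build mm10 with version 4.0.6, per the submitters' processing notes. The antibody list gave the barcode sequences. UMIs of the chosen cells were summed per library and divided by their total (CPM). Intervals of ratios are exact binomial ones, conditional on the sum of both counts, and those of shares Clopper-Pearson, at 95%. The ratio was tested on simulated counts drawn with counting error only, as the interval assumes. That test therefore does not cover UMIs that gather in 1 cell. Genes were counted at 20 CPM or more in either pool, and a gene was called at 1.5-fold, or for lists with the higher level at least 25% above the lower. Levels between genes were not compared, since 3' tags are not scaled by length. Named genes were Bclaf1, markers, antibody genes, the 14 highest and 14 lowest KO over WT by the interval bound nearest to 0, the leading genes of both population comparisons and up to 5 members of each list. The members of the population, the lists and the tests were chosen with earlier results of these data known. Jun, Junb, Zfp36l2 and Gm42418 were named after their values were seen. Some genes under the rule are not reported here. Doublets were not called; leaving out the 5% of cells with the most UMIs was an alternative. Gene identifiers were found in the reference annotation for 26335 genes. Python 3.11.15, numpy 2.4.6, scipy 1.17.1 and pandas 2.3.3 were used.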

Additional observations from a re-analysis of the deposited data

Results flagged for a closer look

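The KO over WT log2 ratio of 7 flagged genes had opposite signs in high-CD201 cells and in another population, and the difference was not tested. These are not all such genes, since Meg3, Myc and Ifit1 also changed sign. Ifit1 had 1.53 in high-CD201 and -1.42 in low-CD201 cells. Id3 had -1.64 in high-CD201 and 1.35 in low-CD201 cells. The mitotic genes Nusap1, Tpx2, Ube2c and Birc5 had -0.89, -0.74, -0.80 and -0.65 in high-CD201 cells, and 0.92, 0.90, 0.94 and 0.52 in low-CD201 cells. Hist1h3i had -1.16 and 0.46 in the same populations. Wdcp had -1.32 in high-CD201 cells and 0.72 in CD150-CD48- cells.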

How the results depend on the processing

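No paired analysis was possible because, for KO over WT, each genotype has 1 library. The comparisons of populations were made within each library, without a test. Results were recomputed under 16 alternatives, 2 of which were added after seeing the data (the cells that stand apart left out, with and without a new CD201 median). Of 669 recomputed ratios of named genes, 535 stayed within the main counting interval, 121 moved outside it and 13 reversed; the causes were not tested. With all settings as in the report 362 genes were higher and 59 lower in KO.

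At 50 CPM these were 95 and 9, high over low CD201 gave 46 and 119, high over CD150-CD48- cells 45 and 67, and the immediate early median was 0.64. At 5 CPM they were 1045 and 348, 501 and 354, and 380 and 338, because more genes are counted. At 16000 UMIs per cell 240 genes were lower in KO and 127 lower in high than low CD201, the early median was 1.18, the G2 and M median -0.69, the interferon median 0.026 and the WT share 3.25%. At 5% mitochondrial UMIs 89 were lower. With 1 CD201 limit the G2 and M median was 0.37, the histone median 0.45, the KO share 4.89%, Nusap1 0.44, Tpx2 0.23 and Birc5 0.11. With only the highest of the 4 CD201 groups, 185 were lower, 208 higher over CD150-CD48- cells, the early median was 0.94, the G2 and M median -0.13, Ube2c 0.42, Gm26917 -0.069, and shares were 2.01% in KO and 2.63% in WT. With stricter CD150 and CD48 limits 114 were lower, the G2 and M median was -0.31, the histone median 0.00018, and shares were 2.48% and 3.64%. With 0 UMIs of lineage genes 100 were lower, the G2 and M median was -0.27, and shares were 3.03% and 4.30%.

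With no limit on lineage genes 681 were higher and 544 lower in KO, 193 and 125 over low CD201, 235 and 65 over CD150-CD48- cells, the early median was 0.16, the G2 and M median 0.67, the histone median 0.76, the KO share 5.43%, Tpx2 0.41, Ube2c 0.87, Tk1 0.22, Birc5 0.90, Meg3 -0.030, Hist1h3i 0.72 and Hist1h3d 0.060. Median-of-ratios scaling gave 211 and 125. With cells weighted equally the G2 and M median was 0.30. Thinned to 8000 UMIs, 706 were higher and 214 lower, 200 higher over low CD201, the G2 and M median was 0.28 and Tpx2 0.30. Without the cells that stand apart 231 were higher and the G2 and M median was -0.33, and with a new CD201 median 215 and -0.30. Fos, Nr4a2 and Klf2 kept a positive ratio throughout. Subtracting 5% background and leaving out the 5% of cells with the most UMIs moved none of these counts by over 1.5 times. Near 20 CPM the KO pool holds few UMIs, and the intervals are wide.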
